A study of Mus musculus with 5 samples.

Results

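The genes described are 9 components of the matrix of hyaline cartilage, the tissue that forms the rings of the trachea and the plates of the large bronchi. They were chosen by name: aggrecan (Acan), the fibril collagens Col2a1, Col9a1, Col9a2, Col9a3 and Col11a1, the matrilins Matn1 and Matn3, and link protein (Hapln1). The platform annotation gave 10 probe sets with exactly 1 symbol for them, of 10833 such probe sets representing 8251 genes. Col9a3 had 2 probe sets and each other gene 1. Each probe set consists of several short oligonucleotides against the same transcript.

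The arrays are 5 Affymetrix arrays of RNA labelled as murine lung, from A-J mice (the labels' spelling) treated through the trachea. Of these, 2 were of mice given saline and 3 of mice given IL-13 (IL13 in the labels), a cytokine of allergic inflammation. By its title the series concerns goblet cells, which secrete mucus onto the airway surface. Saline arrays have the title numbers 6 and 48, and IL-13 arrays 6, 18 and 48. The labels give no unit for these numbers, so each array is called by its treatment and title number. The labels state neither the age of the mice nor how many animals an array stands for, nor whether arrays come from separate animals. P-values therefore reflect only how far these arrays spread, which may be technical and which includes differences in title number. Each treatment has 1 array at each of its title numbers, and no saline array has the number 18.

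Cartilage matrix is a mesh of thin fibrils filled with a swollen proteoglycan gel. Type II collagen makes the body of the fibril, type XI collagen lies within it and limits its width, and type IX collagen sits on its surface. Aggrecan carries sulfated sugar chains that hold water, and link protein fastens it to hyaluronan. Matrilins connect these parts, and matrilin-1 is abundant in the cartilage of the trachea. The transcription factors SOX9, SOX5 and SOX6 turn on many of these genes in chondrocytes, the cells of cartilage.

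Intensities are the authors' deposited values, scaled here to a common mean. Values below 55.3 (the 20th percentile of all values) were set to it before log2 was taken. A probe set was tested if it exceeded 210 (the 40th percentile) on at least 2 arrays, as 7811 did. The median array intensity lay between 324.4 and 358.4. The arrays differed in transcripts of other tissues. The summed level of 8 salivary gland genes was 101248 on saline 6 and 664 to 930 on the other 4 arrays. Surfactant protein C, Sftpc, the defining transcript of alveolar type II cells, read 17179 on IL-13 18, 2615 on saline 6 and 194 to 300.5 on the other 3. The alveolar type I genes Ager (1872 to 4928), Hopx (484 to 1606) and Pdpn (334 to 895) were above 210 on all 5 arrays, each highest on IL-13 18. The club cell protein gene Scgb1a1, of airway lining, was bright on all 5 arrays (22024 to 31024). The thyroid gene Tg (13170 to 25516) and the parathyroid gene Pth (8658 to 13790) were also bright on all 5. Saline 6 and IL-13 18 therefore stood apart in these markers. For the members, the differences with IL-13 and the sequence by title number are given without saline 6 too. The differences given for genes outside the member list include saline 6.

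The main cartilage proteoglycan and matrilin-1 were the members whose levels varied most among those tested, and the treatment did not sort their levels. Acan, the proteoglycan core protein, read 948 and 3278 on the saline arrays of 6 and 48, and 1552, 1895 and 2142 on the IL-13 arrays of 6, 18 and 48 (probe set 104205_at). Its highest and its lowest value were both saline arrays, 3.46-fold apart, and all 3 IL-13 arrays lay between them. In bulk RNA of a tissue, fewer chondrocytes and less Acan RNA per chondrocyte cannot be told apart. Matn1, which links collagen fibrils to proteoglycan, read 82.9 and 282 on the saline arrays of 6 and 48, and 138, 151 and 327 on the IL-13 arrays of 6, 18 and 48 (102785_at). Its values were high on the arrays of title number 48 in both treatments and lower on the other 3, and saline and IL-13 overlapped. Matn1 passed the filter only through those 2 arrays of title number 48, so its difference from the others is in part a condition of its being tested.

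Matn3, the related matrilin, was dimmer. It read 41.5 and 117 on the saline arrays of 6 and 48, and 55.9, 96.7 and 150.4 on the IL-13 arrays of 6, 18 and 48 (102089_at), and never reached 210, so it was not tested. The arrays stood in the same sequence as for Matn1, with both arrays of title number 6 lowest and both of 48 highest. Hapln1, link protein, read 38.0 and 46.5 on saline 6 and saline 48, both below the floor of 55.3, and 100.04, 63.8 and 108.3 on IL-13 6, 18 and 48 (92506_at). All 3 IL-13 values lay above both saline values, which puts the fold at at least 1.81 in the pair at 6 and at least 1.96 in the pair at 48. Hapln1 was not tested either, because it exceeded 210 on no array. Among all 12422 probe sets, tested or not, 16.0% had all 3 IL-13 arrays above both saline arrays.

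The fibril collagens divided. Col9a3, a chain of the type IX collagen on the fibril surface, read 703 and 1093.7 on saline 6 and 48 and 769, 871 and 1129.9 on IL-13 6, 18 and 48 (102070_at), low on both arrays of title number 6. Its other probe set, 162103_i_at, an ending that marks a set with fewer unique probes than usual, differed in this. Its saline values were 105 and 101 and its IL-13 values 86.0, 33.2 and 79.0, below 210 on all arrays. Col11a1, a chain of the type XI collagen that limits fibril width, read 407 and 725 on the saline arrays of 6 and 48, and 524, 582 and 674 on the IL-13 arrays of 6, 18 and 48 (100481_at). The treatments overlapped, and the arrays of title number 48 were again the highest.

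The other chains of type IX collagen had a narrow range. Col9a2 read 666 and 647 for saline, then 699, 698 and 705 for IL-13 (98027_at), a range of 1.09-fold over the 5 arrays. All 3 IL-13 values of Col9a2 were above both saline values. Col9a1 read 659 and 547 for saline, then 523, 696 and 577 for IL-13 (104483_at), a range of 1.33-fold in which the treatments overlapped. Type IX collagen is assembled from the products of all of these genes, and their probe sets differed in range. The range was 1.09-fold for Col9a2, 1.61-fold for Col9a3 on 102070_at and at least 1.91-fold on its dim probe set 162103_i_at.

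Col2a1, the collagen that defines hyaline cartilage, had no value above 210. It read 119 and 128 on the saline arrays of 6 and 48, and 144, 101 and 86.4 on the IL-13 arrays of 6, 18 and 48 (95410_s_at, an ending that marks probes shared by related transcripts). Its highest value was on IL-13 6 and its lowest on IL-13 48, so it did not follow the sequence of Acan and the matrilins. Whether this probe set detects Col2a1 RNA was not tested. Acan, Col9a1, Col9a2, Col9a3 (102070_at) and Col11a1 were above 210 on all 5 arrays, Matn1 on 2, and Col2a1, Matn3 and Hapln1 on none. These genes are also made by cartilage elsewhere, and which cartilage they come from was not tested.

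**Figure D1:**
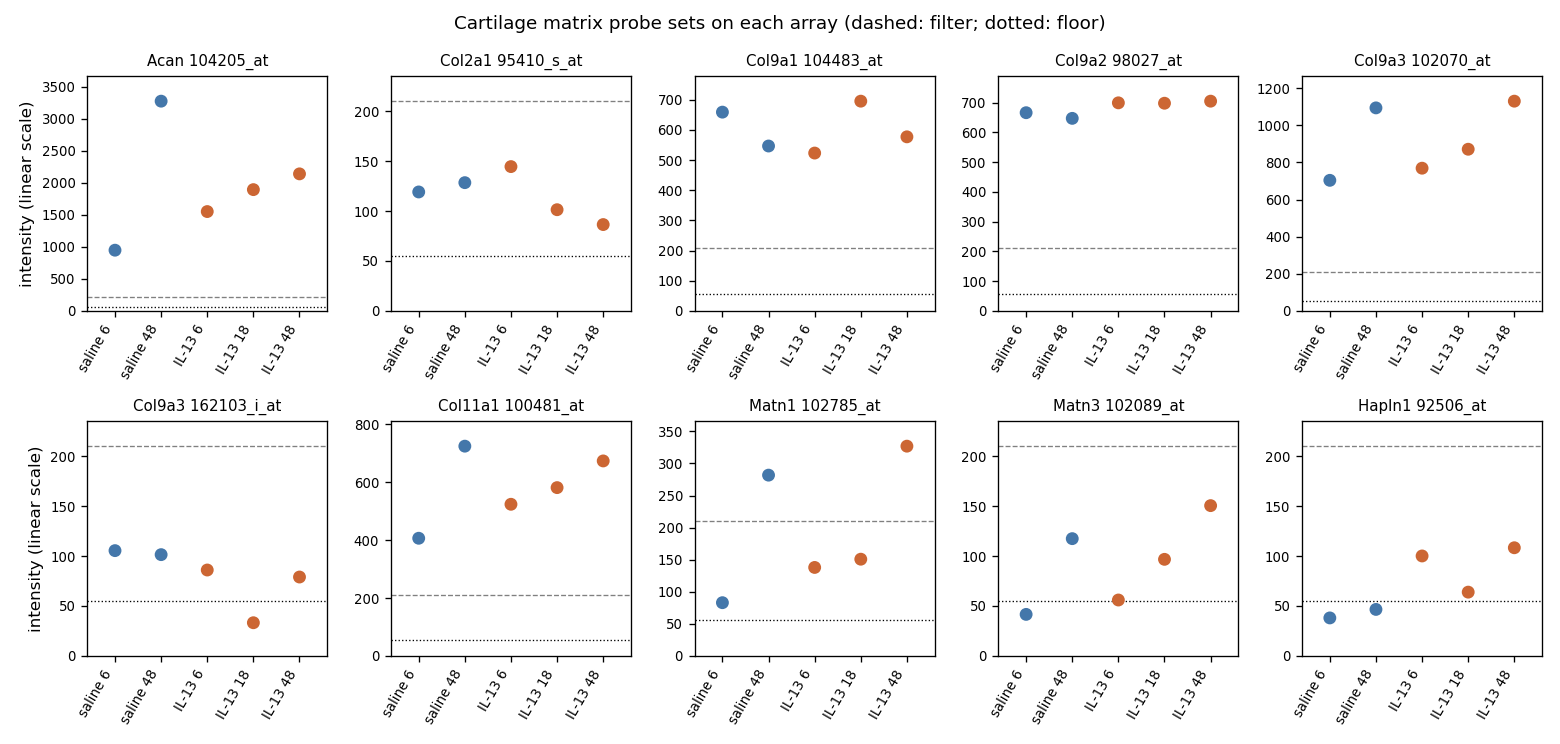
Intensity (linear scale from 0) of each of the 10 probe sets on the 5 arrays, saline in blue and IL-13 in orange, with the filter at 210 (dashed) and the floor at 55.3 (dotted). Acan, Col9a3 (102070_at), Col11a1, Matn1 and Matn3 are lowest on saline 6 and highest on the arrays of title number 48, while Col2a1, Matn3, Hapln1 and 162103_i_at stay below the filter on all 5 arrays.

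The comparison of IL-13 with saline addresses whether the treatment changed cartilage transcripts. None of the 6 tested members passed the limma test with Benjamini-Hochberg adjustment over 7811 probe sets, where 0.0128% were called higher and 0.0384% lower. None had an unadjusted p under 0.05 either, against 5.29% higher and 3.97% lower of all probe sets tested. The log2 difference of Acan was 0.07 (moderated SE 0.49, 95% interval -1.12 to 1.26, adjusted p 0.974). That of Matn1 was 0.31 (SE 0.59, interval -1.11 to 1.73, adjusted p 0.898). These intervals include changes of more than 2-fold in either direction, so this comparison does not show that Acan and Matn1 were equal.

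The collagens were measured with less spread. Col9a2 differed by 0.09 (SE 0.16, 95% interval -0.28 to 0.47, limma adjusted p 0.89) and Col9a1 by -0.01 (SE 0.20, interval -0.50 to 0.47, limma adjusted p 0.987). Col9a3 differed by 0.05 (SE 0.27) and Col11a1 by 0.12 (SE 0.28), with intervals of -0.59 to 0.70 and -0.55 to 0.79. The median over the 6 tested members was 0.08, and over all tested probe sets it was 0.04. Of the tested members 1, Col9a2, had every IL-13 value above every saline value, where the share over all tested probe sets was 14.8%, and none had the opposite, where it was 11%.

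The direction of most members depended on single arrays. Without saline 6, the log2 difference became -0.83 for Acan, -0.57 for Matn1, -0.30 for Col11a1, -0.26 for Col9a3 and 0.12 for Col9a1. Without saline 48 it was 0.96 for Acan and 1.19 for Matn1. Without IL-13 48, Acan (-0.04), Col9a3 (-0.10), Matn1 (-0.08) and Col9a1 (0.01) also changed sign. The difference of Col9a2 stayed between 0.07 and 0.11 whichever array was left out. In the pair at title number 6, Acan was 1.64-fold and Matn1 1.66-fold higher on IL-13, and in the pair at 48 Acan was 1.53-fold lower and Matn1 1.16-fold higher. These are single arrays with no test. None of the 5 member probe sets bright enough to be counted (higher value above the pooled median of 343) was 2-fold apart in either pair, where the shares of all such probe sets were 3.5% higher and 4.06% lower at 6 and 1.13% and 2.08% at 48.

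Levels of several members sorted the arrays by title number, a pattern noticed in these values and described here by counts. For 4 of the 6 tested members (Acan, Col9a3, Col11a1 and Matn1) both arrays of title number 6 lay below IL-13 18, and IL-13 18 lay below both arrays of 48. Over all tested probe sets 6.06% had this sequence, and 3.53% had its reverse, which no member showed. Without Matn1, whose filter depends on the arrays of 48, it was 3 of 5. Matn3 had the sequence as well, which makes 5 of the 10 member probe sets against 4.85% of all 12422. Saline 6 was the lowest array for the same 4 of 6 tested members, as for 32.1% of all tested probe sets, and both arrays of 48 lay above the array of 6 of their own treatment for those 4, as for 32.1%. The members share the same 5 arrays and are not independent of each other. Within the IL-13 arrays alone, which leaves out saline 6, the same 4 members increased from 6 to 18 to 48, as did 20% of all tested probe sets.

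Within saline, the array of title number 48 was 3.46-fold above that of 6 for Acan, 3.4-fold for Matn1, 1.78-fold for Col11a1 and 1.56-fold for Col9a3. Within IL-13 the same comparison gave 1.38-fold for Acan, 2.37-fold for Matn1, 1.29-fold for Col11a1 and 1.47-fold for Col9a3. Matn3 was at least 2.12-fold higher within saline and 2.69-fold within IL-13, both from dim values. Acan was the only member of the 5 counted that passed 2-fold within saline, where 3.11% of probe sets were 2-fold higher and 3.13% lower, and none did within IL-13 (1.43% and 2.0%). Matn1 reached 2-fold within both but lay under the median of 343 on all arrays.

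Of the 5 member probe sets with a value above 343, none lay 2-fold above or below the other 4 arrays on any single array. Dimmer members were not counted. Over all probe sets counted, saline 6 stood 2-fold above the others in 1.4% and below in 0.78%, more than the other arrays did. The shares above and below were 0.129% and 0.127% for saline 48, 0.354% and 0.144% for IL-13 6, 0.411% and 0.0725% for IL-13 18, and 0.0961% and 0.145% for IL-13 48. At 1.5-fold, Acan was the only member among these 5 to stand apart, above the others on saline 48 and below them on saline 6.

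**Figure D2:**
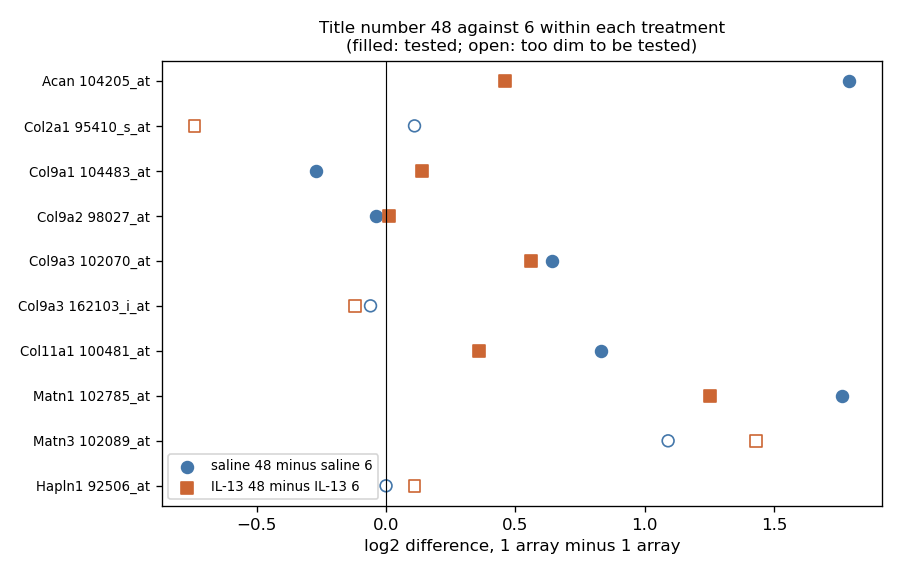
Log2 difference of the array of title number 48 from that of 6 within saline (blue circles) and within IL-13 (orange squares) for each probe set, filled where it was tested and open where it was too dim, with values under 55.3 set to it. Acan, Col9a3 (102070_at), Col11a1, Matn1 and Matn3 lie to the right of 0 in both treatments, and Col9a2 lies near 0 in both.

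A limma fit with treatment and title number as terms over the 4 arrays of 6 and 48, added after the data were seen, gave the size of this difference. It had 1 residual and 4.2 prior degrees of freedom, so each SE rests largely on the spread of all tested probe sets. Since the fit was run on a pattern already noticed in the same arrays, it is no independent support for that pattern. The log2 difference was 1.13 for Acan (SE 0.36, adjusted p 0.601), higher on the array of 48 in both treatments. For Matn1, which was tested only because both arrays of 48 passed the filter, it was 1.51 (SE 0.24, adjusted p 0.514). Col9a3 and Col11a1 differed by 0.60 each (SE 0.21 and 0.24, limma adjusted p 0.613 and 0.618). Col9a1 (-0.06, SE 0.23) and Col9a2 (-0.02, SE 0.21) were near 0. No member and no probe set of the table passed (limma, lowest adjusted p 0.231, 0.0% called in either direction). Unadjusted p was under 0.05 for 4 of the 6 members, all higher at 48, and for 3 of the 5 without Matn1, where 4.6% of all probe sets were higher and 3.42% lower. With 1 array for each treatment and title number, time, animal and the piece of tissue taken cannot be told apart.

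**Figure D3:**
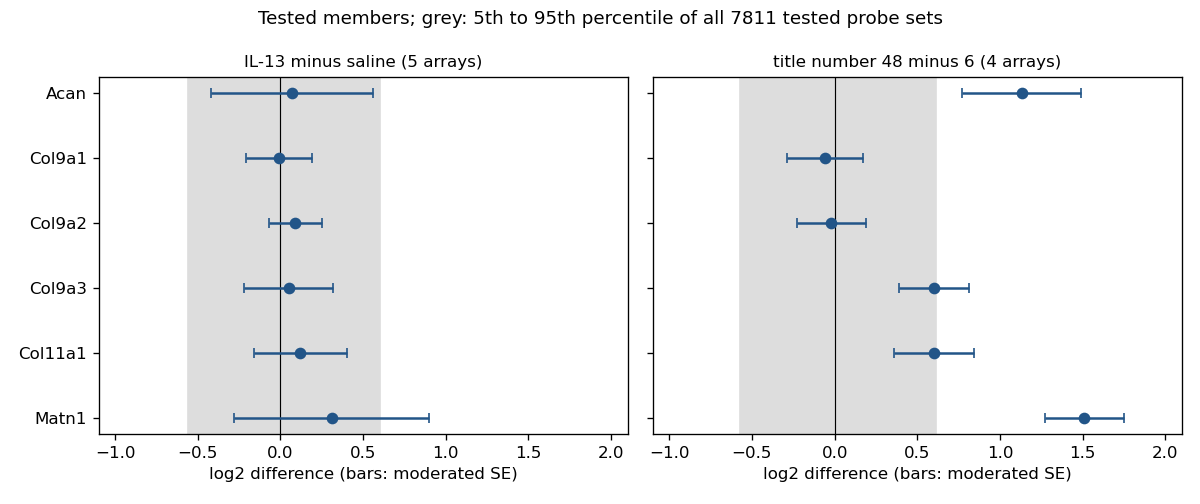
Log2 differences of the 6 tested members with their moderated SE (bars), for IL-13 minus saline over 5 arrays (left) and title number 48 minus 6 over 4 arrays (right), with the 5th to 95th percentile of all 7811 tested probe sets in grey. All members lie within the grey range on the left, and Acan (1.13) and Matn1 (1.51) lie beyond its upper end of 0.61 on the right, Matn1 having passed the filter only through the arrays of 48.

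The sequences next to the transcription start are shown for Acan, Matn1 and Matn3, 3 of the members whose arrays sorted by title number, and for Col9a2, whose level hardly varied. Col11a1 also sorted and has a window, which is not printed. They were chosen after the values were seen. RefSeq windows of GRCm38.p6 matched 7 of the 9 genes, with 8 windows, and Col2a1 and Col9a3 had none. The 250 bases before the start are chr7:79052976-79053225 for Acan, chr4:130944135-130944384 for Matn1, chr12:8947679-8947928 for Matn3 and chr4:121039316-121039565 for Col9a2, all on the plus strand and read 5′ to 3′. Capitals mark GGGCGG or its reverse complement, the core of a GC box, to which factors of the SP family are known to bind.
Acan: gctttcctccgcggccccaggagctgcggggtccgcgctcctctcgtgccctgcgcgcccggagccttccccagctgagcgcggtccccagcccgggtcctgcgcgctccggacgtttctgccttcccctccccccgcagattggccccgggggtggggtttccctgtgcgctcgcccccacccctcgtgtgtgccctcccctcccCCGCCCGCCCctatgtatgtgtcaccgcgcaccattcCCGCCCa
Matn1: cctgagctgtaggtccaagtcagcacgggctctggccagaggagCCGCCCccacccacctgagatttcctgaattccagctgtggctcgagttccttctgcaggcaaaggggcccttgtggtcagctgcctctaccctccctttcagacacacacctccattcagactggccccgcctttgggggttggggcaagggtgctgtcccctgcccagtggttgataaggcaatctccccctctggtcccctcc
Matn3: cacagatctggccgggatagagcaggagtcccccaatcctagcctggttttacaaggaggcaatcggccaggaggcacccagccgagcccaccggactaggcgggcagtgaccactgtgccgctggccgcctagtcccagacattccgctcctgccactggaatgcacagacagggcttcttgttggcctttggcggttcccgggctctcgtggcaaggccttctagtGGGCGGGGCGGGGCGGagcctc
Col9a2: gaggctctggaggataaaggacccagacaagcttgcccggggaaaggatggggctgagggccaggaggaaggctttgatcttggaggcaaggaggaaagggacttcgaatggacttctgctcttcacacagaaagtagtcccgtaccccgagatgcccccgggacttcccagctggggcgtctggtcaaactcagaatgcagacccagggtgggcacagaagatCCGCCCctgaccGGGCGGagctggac

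The GC box core GGGCGG stood on either strand in 5 of the 8 member windows (Acan, Matn1, Matn3, Col11a1 and Col9a2) and in 32.7% of the 32851 windows of that length. It occurred 3 times in the Acan window and 3 times, overlapping in 1 run, in the Matn3 window, and both Matn3 and the near-constant Col9a2 held it. The windows of Col9a1, whose range was also narrow, and of Hapln1 did not hold it. Whether its presence goes with the range of a member was not tested. The letters of SOX motifs, AACAAT and ACAAAG, and those of the TATA box, TATAAA, were in none of the 8 windows on either strand, where 9.42%, 16.5% and 12.4% of all windows held them. These 3 results say only that the letters are not in these 250 bases. The GC content was 74.4% for Acan, 62.0% for Matn1, 65.2% for Matn3 and 60.4% for Col9a2, where the median window had 52.4%.

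Other matrix proteins of cartilage were measured by a list of 28 genes, of which 14 were tested. None passed the limma test in either direction, 12 had a higher and 2 a lower mean with IL-13, and the median log2 difference was 0.19, against 0.03 over all 5983 genes tested. The largest differences were those of Snorc, a proteoglycan of chondrocytes (0.61, SE 0.20), Lum, a collagen-binding proteoglycan of connective tissue (0.60, SE 0.24), Matn4, another matrilin (0.59, SE 0.31), and Fbln1, a matrix glycoprotein (0.48, SE 0.20). Snorc, Lum and Fbln1 were higher on each IL-13 array than on either saline array, and Matn4 was not. Over this list 5 of the 14 tested genes lay so, as did 843 of all 5983 genes tested. Other tested probe sets of Fbln1 gave 0.41 and 0.22. Matn2 differed by 0.36 on its brighter probe set and by 0.99 on 161776_at. The latter read 170 and 206 for saline, then 326, 509 and 310 for IL-13. Probe set 161776_at passed the filter only through the IL-13 arrays, so its difference is in part a condition of its being tested.

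Col11a2, the partner chain of Col11a1, read 227 and 714 on the saline arrays of 6 and 48, and 511, 331 and 475 on the IL-13 arrays of 6, 18 and 48, and IL-13 18 was below IL-13 6, unlike for Col11a1. In the same list Chad and Fmod sorted by title number as Acan did, 2 of 14 genes, where all tested genes gave 6.35%. Chad, a leucine-rich protein that chondrocytes bind, read 887 and 1794 for saline, then 1223, 1351 and 1721 for IL-13. Fmod, which binds collagen fibrils, read 248 and 481 for saline, then 252, 279 and 597 for IL-13. Their log2 differences between title numbers 48 and 6 were 0.75 (SE 0.24) and 1.10 (SE 0.22). Comp, a protein of the cartilage matrix, was not analysed here.

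Of the regulators of cartilage formation, 9 of 25 genes were tested and none passed (7 with a higher and 2 with a lower mean, median 0.22). Sox6, a SOX factor that acts with SOX9, read 123 and 274 on the saline arrays of 6 and 48, and 229.5, 200.3 and 332 on the IL-13 arrays of 6, 18 and 48 (92726_at), which is lowest on saline 6 and highest on IL-13 48. Its other probe set was at or below 55.7 on all arrays. Sox5 was between 27.1 and 67.9 on all arrays and was not tested, and Sox9 was not analysed here. The log2 difference of Sox6 with IL-13 was 0.44 (SE 0.38). The largest others were those of the ligand genes Shh (0.67, SE 0.40) and Bmp4 (0.33, SE 0.19) and of the receptor gene Bmpr2 (0.37, SE 0.19), with limma adjusted p from 0.619 to 0.671.

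Genes that make and sulfate the sugar chains of aggrecan gave 9 tested of 23, none called, with 7 higher, 2 lower and a median of 0.07. Papss2, which makes the sulfate donor and is needed for normal cartilage growth, sorted by title number. It read 884 and 2459.5 on the saline arrays of 6 and 48, and 1010.2, 1143 and 1916 on the IL-13 arrays of 6, 18 and 48, high on both arrays of 48. Its log2 difference between 48 and 6 was 1.20 (SE 0.24) and that between IL-13 and saline -0.18 (SE 0.48). Papss1, the related enzyme, differed by 0.01 between 48 and 6 (SE 0.22). Bpnt2, a phosphatase of the sulfation pathway, was the other gene of the list with that sequence, with 0.20 (SE 0.22) on 95457_at and -0.26 (SE 0.22) on 95458_s_at. That makes 2 of the 9 tested genes, where 6.35% of all tested genes sorted as Acan did. Has3, a hyaluronan synthase, had the largest difference with IL-13 (1.25, SE 0.34, limma adjusted p 0.404). It read 82.8 and 164 on saline and 276, 352 and 217 on IL-13. Has3 passed the filter only through the IL-13 arrays, so its difference is in part a condition of its being tested. Chpf, which extends chondroitin chains, differed by 0.38 (SE 0.19) and B3gat3, which builds the chain linker, by 0.17 (SE 0.18).

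Collagen processing genes gave 13 tested of 20, none called, with 9 higher, 4 lower and a median of 0.21. Serpinh1, the collagen chaperone, differed by 0.76 (SE 0.21), the collagen glycosyltransferase gene Colgalt1 by 0.42 (SE 0.19), the crosslinking enzyme gene Loxl1 by 0.34 (SE 0.19) and the prolyl isomerase gene Ppib by 0.33 (SE 0.18), each with all 3 IL-13 arrays above both saline arrays. Over this list 5 of the 13 tested genes lay so, as did 843 of all 5983 genes tested. None of the 13 sorted by title number as Acan did, where the share over all tested genes was 6.35%. Genes of matrix breakdown gave 9 tested of 17, none called, with 4 higher, 5 lower and a median of -0.19. Mmp14, a membrane metalloproteinase, differed by 0.61 (SE 0.27), and the cathepsin genes Ctsl by -0.46 (SE 0.28), Ctsb by -0.39 (SE 0.19, 0.01 on probe set 95608_at) and Ctsk by 0.37 (SE 0.17).

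Markers of neighbouring tissues are given beside the sorting by title number in the cartilage genes. Of 5 measured thyroid and parathyroid genes, Iyd and Tshr sorted by title number as Acan did and Tg sorted the reverse way. Over all tested genes 6.35% sorted as Acan did. The reverse order was also that of 3 of 9 tested skeletal muscle genes (Acta1, Myh4 and Atp2a1), of Acta2 in smooth muscle and of Scgb1a1 in airway epithelium, and of 199 of all 5983 genes tested. Iyd, which recycles iodide, read 1297 and 3998 for saline, then 2443, 2549 and 3602 for IL-13. Tshr, the receptor for thyrotropin, read 41.1 and 344 for saline, then 70.0, 287 and 379 for IL-13. Tshr exceeded 210 only on the arrays of title numbers 18 and 48, so its sorting is in part a condition of its being tested. The summed level of the 5 genes was 32797 to 34138 with saline and 31614 to 40425 with IL-13. The 8 interstitial collagens, of ordinary connective tissue, did not sort as Acan did in any gene, where 6.35% of all tested genes did. They summed to 42029 to 42542 with saline and 52145 to 54185 with IL-13. Bone markers were dim, with 3 of 4 (Dmp1, Ibsp and Phex) never above 210. Their part in the cartilage values was not tested.

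The remaining marker lists differed in other ways. Of 7 airway smooth muscle genes Des sorted by title number as Acan did, against 6.35% of all tested genes. The summed level of the 7 smooth muscle genes was 21942 to 24317 with saline and 21550 to 27204 with IL-13. That of airway epithelium genes (8) was 47881 to 48810 with saline and 51220 to 57719 with IL-13, with Krt15 and Krt5 never above 210. Of the 6 tested genes of this list 2 (Cyp2f2 and Tekt1) sorted by title number as Acan did, where 6.35% of all tested genes did. Tekt1 exceeded 210 only on the arrays of title number 48, so its sorting is in part a condition of its being tested. Alveolar epithelium genes (6) gave 3685 to 5657 with saline and 4078 to 26897 with IL-13, and heart muscle genes (10) 24731 to 43718 and 26627 to 34987. Thymocyte genes (9) summed to 9654 to 11024 with saline and 2916 to 6752 with IL-13, and fat genes (8) to 29914 to 53601 and 23743 to 25140. Skeletal muscle genes (10) gave 102497 to 127709 and 106992 to 136177, and Schwann cell and nerve genes (6) 5912 to 6374 and 6777 to 7345. Heart, fat and salivary genes were highest on saline 6, the array on which Acan, Matn1, Matn3, Col11a1 and Col9a3 were lowest, and their part in those values was not tested.

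**Figure D4:**
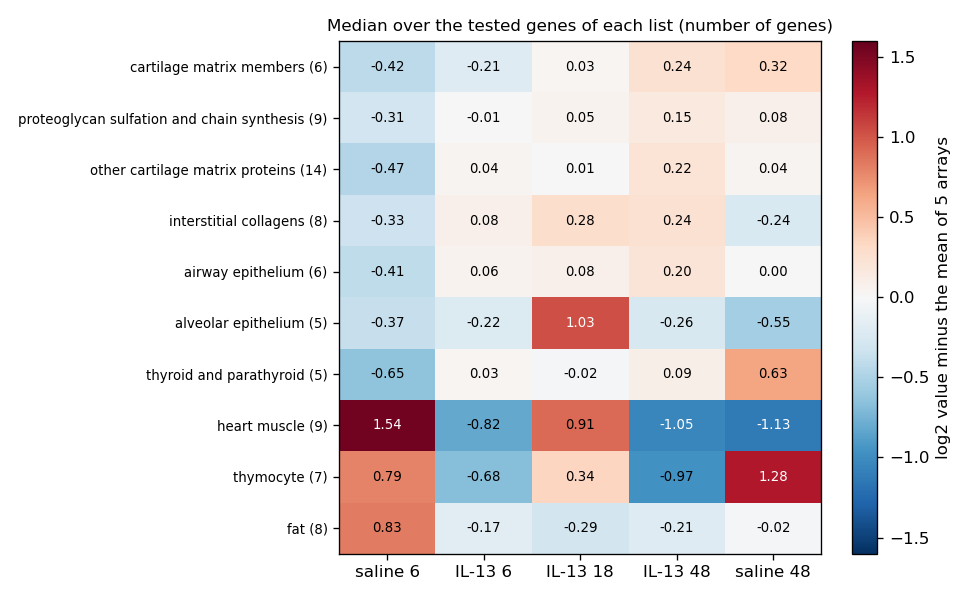
Median over the tested genes of each list (number of genes in brackets) of the log2 value minus the gene's mean over the 5 arrays, with arrays placed by title number. The cartilage matrix members go from -0.42 on saline 6 to 0.24 on IL-13 48 and 0.32 on saline 48, while heart muscle genes are highest on saline 6 (1.54) and alveolar genes on IL-13 18 (1.03).

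The genes whose levels over the 5 arrays lay closest to the average of the 6 tested members were found among 5977 other genes by the root mean square difference of mean-centred log2 values. The 6 closest were Ireb2 (0.044), Rab11fip5 (0.046), Mrpl17 (0.048), Cacybp (0.052), Dido1 (0.056) and Cited2 (0.057), where the median gene had 0.342. Ireb2, an iron regulatory protein, read 397 and 706 for saline, then 527, 573 and 674 for IL-13. None of the 6 is on the cartilage lists used here, and over 5 arrays many genes can share a profile.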

How the data were processed

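The 5 arrays were grouped by the labels as 2 saline and 3 IL-13. The authors deposited 1 table of 12488 probe sets, taken here to be intensity, not log2, from its values alone. Its 2% trimmed mean is 800.39 to 800.47 on all arrays. For software, background correction and detection calls, the method is not given in the sources used here. Control probe sets (66) were removed, leaving 12422, of which 10833 had 1 symbol, 396 several and 1193 none. Symbols were updated by gene number through RefSeq (GRCm38.p6), and probe sets with several symbols were left unnamed. Each array was brought to the same trimmed mean, floored at 55.3 and filtered at 210 on 2 arrays. The test was lmFit and eBayes in limma 3.58.1 (R 4.3.3), two-sided, treatment only (3 residual and 3.46 prior degrees of freedom), with Benjamini-Hochberg adjustment at 0.05, checked on simulated data. SE is the moderated standard error. Pairs of single arrays have no test, and a fold against a value below 55.3 is written "at least". In lists, the brightest probe set (by mean log2 value) represents its gene. The number of arrays limits the precision. Every member was described. Of each other list the 4 genes with the largest log2 difference were named, with Sox9, Sox5, Sox6, Col11a2 and Comp, and the 6 genes most like the members. Chad, Fmod, Papss1, Papss2, Bpnt2, Matn2, Iyd, Tshr, Tg, Pth, Cyp2f2, Tekt1, Des, Acta1, Acta2, Myh4, Atp2a1, Ager, Hopx, Pdpn, Krt5, Krt15, Sftpc and Scgb1a1 were named after their values were seen. The members and lists were chosen with earlier results of these data known. Figures used matplotlib 3.10.9.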

Additional observations from a re-analysis of the deposited data

Results flagged for a closer look

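The difference between IL-13 and saline pointed opposite ways in the pairs of title number 6 and 48 for 3 of the 6 tested members. Acan was higher by 0.71 on the log2 scale at 6 and differed by -0.61 at 48, so the pairs differed by 1.33. Col11a1 differed by 0.37 at 6 and -0.11 at 48, and the pairs by 0.47. Col9a1 differed by -0.33 at 6 and 0.08 at 48, and the pairs by -0.41. Each pair is 1 array against 1, and the difference between pairs was not tested.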

How the results depend on the processing

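No member passed the IL-13 comparison under any alternative run. Over the whole table, 1 probe set was called higher and 3 lower. No probe set was called in either direction when the floor was the 10th or the 40th percentile, when no filter was used, with trend and robust settings, or with title number as a replicate block (0 higher and 0 lower, limma lowest adjusted p 0.11). With quantile normalization 0 were higher, and with the filter at the 60th percentile 0 were higher and 1 lower. Leaving out 1 array gave 0 to 3 higher and 0 to 10 lower, the highest counts without saline 48. Without saline 6, 1 was higher and 0 lower, and without any one IL-13 array 0 were called. Leaving out 1 array turned the sign of 5 members, with log2 differences of -0.83 to 0.96 for Acan, -0.15 to 0.12 for Col9a1, -0.26 to 0.37 for Col9a3, -0.30 to 0.54 for Col11a1 and -0.57 to 1.19 for Matn1. Of these, without IL-13 48 Acan gave -0.04, Col9a1 0.01, Col9a3 -0.10 and Matn1 -0.08, and Col9a1 gave 0.08 without IL-13 6.

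With title number as a block over 4 arrays, Acan differed by 0.05 and Matn1 by 0.47, and 0 members were called. The deviations of same-numbered arrays correlated at 0.132 across probe sets, which are not replicates, and nothing in the labels says that a number marks shared animals or days. At 1.5-fold, 1 member probe set passed in each matched pair, 3 passed for saline 48 over saline 6 in place of 1, and 2 counts of an array apart from the other 4 appeared in place of 0, both for Acan. With the higher value above 210 in place of the median, a choice made after seeing the data, 2 passed within saline and 1 within IL-13, Matn1 in each. With the 40th percentile as floor 1 probe set, no member, passed for title number 48 against 6, and Matn1 differed by 0.53 there. The sequence of arrays by title number held for Acan, Col9a3 and Col11a1 under all scalings, floors and filters run, and for Matn1 under those that kept it, except the floor at the 40th percentile.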
